A study of Mus musculus with 288 samples.

Results

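Peptide hormones of the gut are made as larger precursors and are cut, trimmed and modified on their way into secretory granules. The expression of 7 mouse genes that carry out or control these steps was examined in single cells of the upper small intestine, out of 46078 mouse genes counted. They were chosen for their function and not for their values: the convertases Pcsk1 and Pcsk2, the convertase inhibitor Pcsk1n, the carboxypeptidase Cpe, the amidating enzyme Pam, the ubiquitous convertase Furin and the ghrelin acyltransferase Mboat4. All 7 were found in the count table. Cells were purified by flow cytometry from 3 untreated male GLU-Venus mice aged 20 to 21 weeks, which carry a fluorescent protein under the control of the proglucagon promoter, and sequenced with Smart-seq2 in 3 pools of 96 cells. The pools SLX-11175 and SLX-11179 are shallow and, by the study's methods, include non-fluorescent control cells. The pool SLX-9703 is deep and by the same source holds fluorescent cells only, and each pool was taken as 1 mouse. The labels call every cell an L-cell and do not give its fluorescence, so fluorescent and control cells cannot be told apart here.

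Of 288 cells, 250 had at least 20000 reads on mouse genes and at most 20% mitochondrial reads (75, 87 and 88 in SLX-11175, SLX-11179 and SLX-9703). The median number of gene reads per passing cell was 52571, 70726 and 1975706 in the same order, so low values are far better resolved in the deep pool. Cells were grouped by their hormone transcripts, in CPM, the reads of a gene scaled to 1000000 gene reads. Gcg-high cells had 10000 CPM or more of Gcg (53 cells). Gip-high cells had 10000 CPM or more of Gip, the precursor of glucose-dependent insulinotropic polypeptide (25 cells), and Pzp cells had 100 CPM or more of Pzp, pregnancy zone protein (64 cells). Cck-high cells passed only a Cck threshold of 10000 CPM (37 cells), hormone-poor cells passed none of the 4 thresholds (66 cells), and 5 cells past several of the first 3 thresholds entered no test between classes and were kept in the split by Ghrl and the correlations over endocrine cells. The L-cell label thus covers cells below as well as above the chosen Gcg threshold. Reads of Gcg were found in all 64 Pzp, all 25 Gip-high, 36 of 37 Cck-high and 54 of 66 hormone-poor cells. Each class had at least 5 cells in every pool. Within a class and pool the reads of all cells were summed, and these sums, 1 per pool, were the replicates.

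The classes were not equal in depth or purity. Gip-high cells had fewer reads than Gcg-high cells in SLX-11175 (medians 28664.5 and 62648) and in SLX-9703 (831266 and 2400022), and more in SLX-11179 (110587 and 71331.5). The summed level of 5 endocrine markers was 13698 to 30548 CPM in Gcg-high cells, 958 to 4253 CPM in Gip-high cells and 2230 to 5328 CPM in Pzp cells, with every marker detected. The summed level of 5 goblet cell markers was 4619 to 5781 CPM in Pzp cells against 402 to 734 CPM in Gcg-high cells, with Clca1 at 0 in both, and 12 to 208 CPM in Gip-high cells, with Muc2, Clca1 and Zg16 at 0. The summed hormone-poor reads of the shallow pools held leukocyte transcripts (6 markers, 313538 to 423979 CPM), whereas those of the deep pool had 397 CPM of leukocyte and 9437 CPM of enterocyte markers. Of all 66 hormone-poor cells, 25 had 1000 CPM or more of the leukocyte markers and 24 of the enterocyte markers. The same enterocyte level was reached by 41 of 53 Gcg-high, 58 of 64 Pzp, 36 of 37 Cck-high and 1 of 25 Gip-high cells. It therefore does not set hormone-poor cells apart. By the leukocyte markers, hormone-poor cells are a mixture and differ in kind between pools. The part of these differences in the results below was not tested.

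The members act in sequence. Prohormone convertases cut precursors after pairs of basic residues, and the choice between them decides which peptides are released: in proglucagon, the convertase encoded by Pcsk1 releases the glucagon-like peptides, and that encoded by Pcsk2 releases glucagon. Carboxypeptidase E then removes the basic residues left at the cut end, and peptidylglycine alpha-amidating monooxygenase converts a C-terminal glycine into an amide. Mboat4 encodes the enzyme that attaches a fatty acid to ghrelin.

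Pcsk1 lies on chromosome 13 (75089826 to 75134861, plus strand, build GRCm38) and Pcsk2 on chromosome 2 (143546156 to 143816285, plus strand). The 250 bases before the RefSeq start of each are shown because these convertases were distributed differently across the classes. Capitals mark the cyclic AMP response element TGACGTCA and its core TGACG, read on either strand. The windows are chr13:75089607-75089856 and chr2:143545883-143546132 (GRCm38.p6), both 5′ to 3′ on the plus strand.
Pcsk1: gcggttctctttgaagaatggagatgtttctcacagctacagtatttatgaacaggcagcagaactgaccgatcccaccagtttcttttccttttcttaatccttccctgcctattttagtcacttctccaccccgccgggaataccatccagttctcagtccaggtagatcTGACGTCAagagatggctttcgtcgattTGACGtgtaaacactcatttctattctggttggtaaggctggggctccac
Pcsk2: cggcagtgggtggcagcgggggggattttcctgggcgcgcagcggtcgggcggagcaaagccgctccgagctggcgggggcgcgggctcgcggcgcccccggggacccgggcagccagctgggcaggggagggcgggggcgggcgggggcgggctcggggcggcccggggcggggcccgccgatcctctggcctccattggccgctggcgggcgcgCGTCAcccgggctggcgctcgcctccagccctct
The Pcsk1 window held 1 full element, which starts at position -78 from the start site, and a separate core closer to the gene. The Pcsk2 window held no full element and 1 core on the minus strand, at position -34. The full element was found in 1.55% and the core in 17.8% of 32851 promoter windows of this length. The windows also differed in base composition, with 46.8% G and C for Pcsk1 and 82.4% for Pcsk2. The TATA box TATAAA, present in 12.4% of promoters, was in neither window. The E-box CANNTG (66.2% of promoters) occurred in the Pcsk2 window and not in that of Pcsk1. Windows were at hand for Pcsk1n, Pam and Furin as well, and none of them held the full element. Cpe and Mboat4 were not matched.

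Pcsk1 was detected in nearly every cell with high Gcg, Pzp or Cck and was lower in Gip-high cells. In Gcg-high cells the summed level was 388, 265 and 544 CPM in SLX-11175, SLX-11179 and SLX-9703. In Pzp cells it was 342, 341 and 596 CPM, and in Cck-high cells it was 300.1, 365 and 426 CPM. In Gip-high cells it was 109, 132 and 140 CPM, below every sum of the other 3 endocrine classes. The mean was 399 ± 140 CPM in Gcg-high, 427 ± 147 CPM in Pzp, 364 ± 63.2 CPM in Cck-high and 127 ± 16.1 CPM in Gip-high cells (SD, n = 3 pools). The levels of the first 3 of these classes overlapped.

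Within Gip-high cells Pcsk1 was uneven. A single cell supplied 67.4%, 51.4% and 54.2% of the Pcsk1 reads of the class in the 3 pools, and the median over cells was 40.97, 59.4 and 55.4 CPM. The median over Gcg-high cells was 285, 240.2 and 419.9 CPM. After each cell was thinned to 20000 reads, 15 of 25 Gip-high cells (60%, exact 95% interval 38.7% to 78.9%) still had a Pcsk1 read, against 50 of 53 Gcg-high cells (94.3%, 84.3% to 98.8%) and 60 of 64 Pzp cells (93.8%, 84.8% to 98.3%). Unthinned, the counts were 20 of 25, 50 of 53 and 62 of 64. These intervals cover counting error only, since cells of 1 pool share a mouse and reads were not collapsed to molecules.

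The difference did not pass the test across all genes. In the quasi-likelihood test of edgeR, blocked by pool and adjusted over all genes tested after Benjamini and Hochberg, the log2 fold change of Pcsk1 was 1.06 for Gcg-high minus Gip-high (95% interval 0.22 to 1.89, adjusted p = 0.253). It was -0.95 for Gip-high minus Pzp (-1.78 to -0.11, adjusted p = 0.265). For Gcg-high minus Pzp it was 0.11 (-0.71 to 0.92, adjusted p = 0.999), an interval that includes no difference and a change of either sign. Under limma on cell means, which weighs all cells of a class equally, the log2 difference was larger and passed in both, at 2.69 for Gcg-high minus Gip-high (adjusted p = 0.00767) and -3.01 for Gip-high minus Pzp (adjusted p = 0.00206). With total counts as library sizes the log2 fold change of Gip-high minus Pzp was -1.69 and passed as well (edgeR adjusted p = 0.0268). Gip-high cells with less than 100000 CPM of Gip (5, 1 and 5 cells in SLX-11175, SLX-11179 and SLX-9703) had a median of 0, 0 and 28.1 CPM of Pcsk1, against 93.7, 112 and 111 CPM in the cells above that level. They were also shallower than those in the same pool, with medians of 23316, 20617 and 634327 reads against 32007, 118908 and 2186710 reads. Over all pools they had lower medians of Cpe (388 against 2264.5 CPM), Pam (45.3 against 117 CPM) and Pcsk1n (17.9 against 92.5 CPM) as well. The same held for Chgb (300 against 1283 CPM) and Scg5 (3.31 against 147 CPM), so the lower level was not particular to Pcsk1. Without the cells under 100000 CPM of Gip the log2 fold change of Pcsk1 for Gcg-high minus Gip-high was 0.89 (adjusted p = 0.333).

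**Figure D1:**
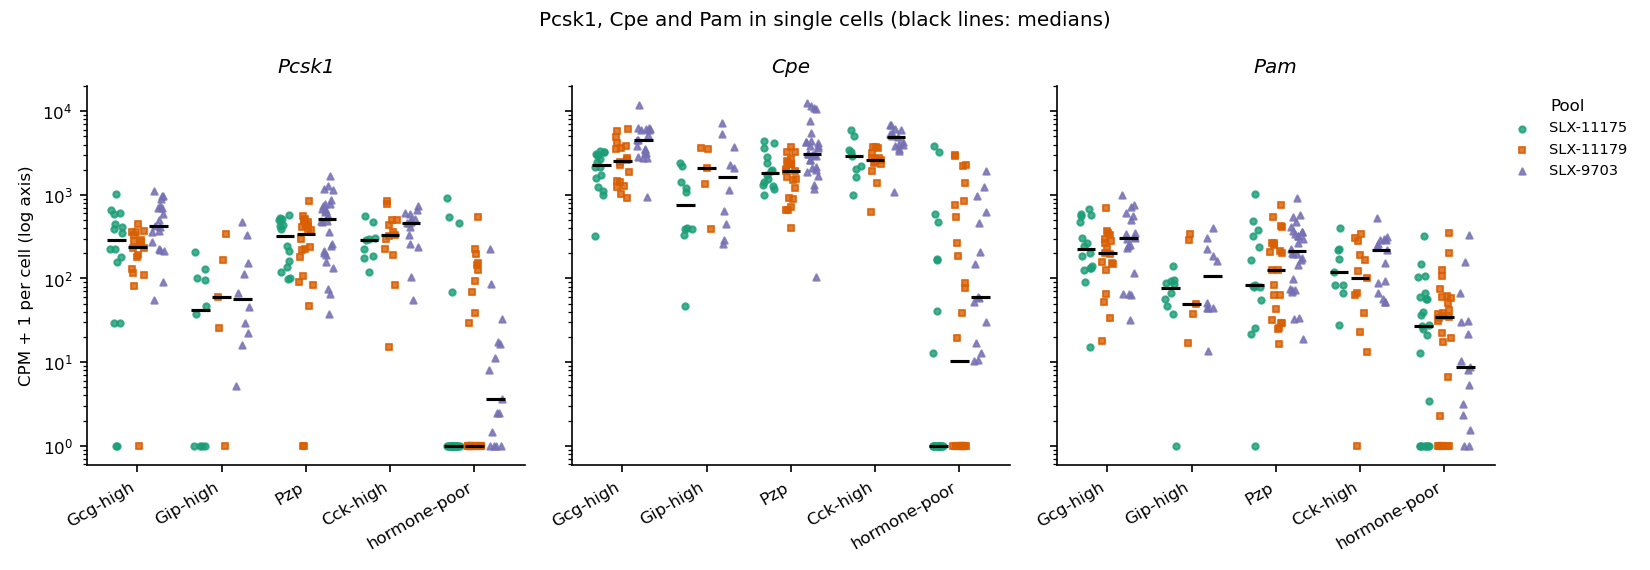
Pcsk1, Cpe and Pam per cell (vertical log axis, CPM + 1) by class (horizontal axis) and pool (colour and symbol), with black lines at the median of each class and pool. Gip-high cells sit low for Pcsk1, and a few hormone-poor cells reach the level of the endocrine classes.

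Pcsk2 was close to absent outside Gip-high cells. No read was found in the Gcg-high or Pzp cells of SLX-11175 and SLX-11179. In the deep pool the summed level was 12.5 CPM in Gcg-high and 0.356 CPM in Pzp cells. In Gip-high cells it was 11.9, 1.79 and 63.6 CPM in SLX-11175, SLX-11179 and SLX-9703. The shallow Gip-high sums rest on 5 reads and 1 read. In Cck-high and hormone-poor cells no pool exceeded 0.909 CPM. The antisense genes Pcsk2os1 and Pcsk2os2 overlap Pcsk2, and the libraries do not keep strand.

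A few cells carried these reads. In the deep pool 1 Gip-high cell had 687 Pcsk2 reads (227 CPM), more than its Pcsk1 (111 CPM), and another had 179 reads (76.4 CPM) with 14.9 CPM of Pcsk1. These cells had 534698 and 549306 CPM of Gip. Of 620 Pcsk2 reads in the deep Gcg-high cells, 619 came from 1 cell, which had 142 CPM of Pcsk2 beside 1119 CPM of Pcsk1, 78843 CPM of Gcg and 27 CPM of Gip. After thinning, Pcsk2 was found in 6 of 25 Gip-high cells (24% of them, exact 95% interval 9.36% to 45.1%). It was found in 1 of 53 Gcg-high cells (1.89%, 0.0478% to 10.1%) and in 0 of 64 Pzp cells (upper limit of the exact interval 5.6%). Unthinned, the counts were 9 of 25, 2 of 53 and 4 of 64.

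Set side by side in the thinned cells, 49 Gcg-high cells had Pcsk1 only, 1 had both convertases and 3 had neither. Among Pzp cells 60 had Pcsk1 only and 4 had neither. Among Gip-high cells 13 had Pcsk1 only, 2 had both, 4 had Pcsk2 only and 6 had neither. These 4 were the only cells of the 250 with Pcsk2 and no Pcsk1 after thinning, which was 1 random draw. Unthinned, 2 Gip-high cells and 1 hormone-poor cell had Pcsk2 only, and 7 Gip-high cells had both. Among thinned cells with at least 50000 reads, 1 Gip-high cell had Pcsk2 only. Absence of Pcsk1 in these cells thus depends on depth. Per kilobase of exon, the thinned reads of Gip-high cells gave 6.67 times as much Pcsk1 as Pcsk2. In Pzp cells, where the count of Pcsk2 was 0, the ratio was at least 262 against a floor of 3 reads over the class. The single Pcsk2 read of the Gcg-high cells allows no firm ratio.

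Pcsk2 was called higher in Gip-high than in Pzp cells (log2 fold change 9.11, SE 1.82, edgeR adjusted p = 0.0116). It was 1 of 7 members called in that comparison, in which 2.86% of all genes tested were called and 1.1% were called higher. Pcsk2 passed the filter on low counts mainly through the Gip-high sums themselves, the Pzp sums of both shallow pools were 0, and 78.6% of the deep Gip-high reads came from 1 cell. The call therefore adds little to the counts, and the size of the fold depends on the prior count. Over 16 alternatives it ranged from 1.58, with limma on cell means of log2(CPM + 1), to 9.34. The call was lost at a minimum of 50000 reads per cell (8.42, adjusted p = 0.139) and with spike-in library sizes (8.27, adjusted p = 0.0748). The minimum of 50000 reads left 16 Gip-high cells, with fewer in SLX-11175 than the 3 needed for a sum. Without SLX-9703, or after thinning, Pcsk2 had too few reads to be tested. For Gcg-high minus Gip-high the log2 fold change was -4.27 (-6.99 to -1.54, adjusted p = 0.143).

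**Figure D2:**
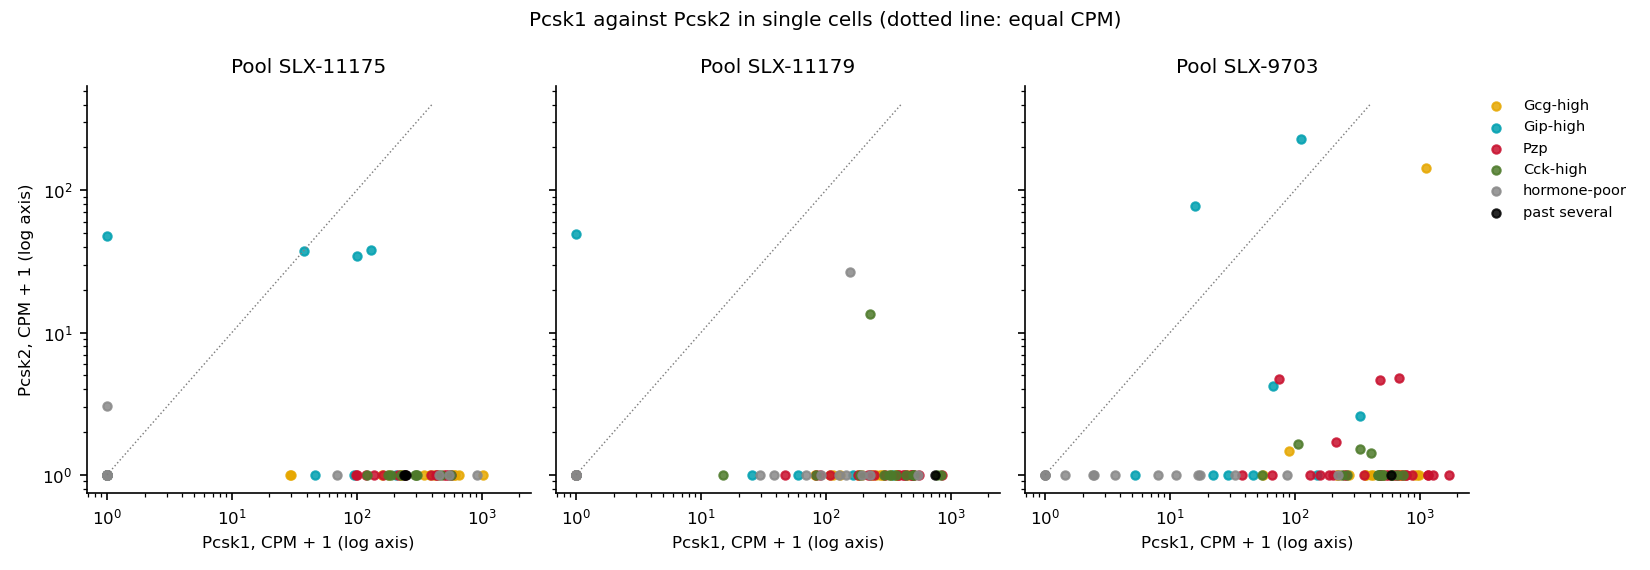
Pcsk1 (horizontal log axis, CPM + 1) against Pcsk2 (vertical log axis, CPM + 1) in every cell that passed, 1 panel per pool, coloured by class. Most cells lie along the bottom edge with no Pcsk2 read, and the cells on or above the dotted line of equal CPM, origin aside, include only Gip-high and hormone-poor cells.

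Pcsk1n encodes proSAAS, a granule protein whose fragments inhibit the convertase of Pcsk1. It lies on the X chromosome (7919822 to 7924410, plus strand) and overlaps Eras on the other strand. The summed level was 147, 80.7 and 171 CPM in Gcg-high cells. It was 83.2, 78.8 and 141 CPM in Gip-high cells, and 91.8, 76.5 and 249.6 CPM in Pzp cells. In Cck-high cells it was 120.02, 149.8 and 457 CPM, the highest of the classes in SLX-11179 and SLX-9703. Unlike those of Pcsk1, the Gip-high sums overlapped the Gcg-high and Pzp sums. No difference between the 3 main classes passed the test, with log2 fold changes of -0.14 for Gcg-high minus Gip-high (-1.06 to 0.78), 0.28 for Gcg-high minus Pzp (-0.63 to 1.19) and 0.42 for Gip-high minus Pzp (-0.49 to 1.34). The adjusted p of edgeR was 0.742 or more in all 3, and the signs for Gcg-high minus Gip-high and Gip-high minus Pzp turned under other library sizes.

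Over single cells the inhibitor did not follow its target closely. The Spearman correlation of Pcsk1 and Pcsk1n over endocrine cells was 0.20 in SLX-11175 (52 cells), 0.08 in SLX-11179 (59 cells) and 0.16 in SLX-9703 (73 cells). This is a description over cells that share a library. The correlation with depth in the same pools was 0.43, 0.26 and 0.40 for Pcsk1 and 0.26, 0.35 and 0.10 for Pcsk1n.

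Cpe, on chromosome 8 (64592542 to 64693054, minus strand), was the most abundant member and was detected in all 179 cells of the 4 endocrine classes. Its summed level in SLX-11175, SLX-11179 and SLX-9703 was 2429, 3427 and 4980 CPM in Gcg-high cells. It was 1349, 2549 and 3601 CPM in Gip-high cells and 2162, 1881 and 4612 CPM in Pzp cells. The classes overlapped, and the deep pool was the highest in each. The log2 fold change was 0.05 for Gcg-high minus Gip-high (-0.83 to 0.93), 0.58 for Gcg-high minus Pzp (-0.31 to 1.47) and 0.53 for Gip-high minus Pzp (-0.36 to 1.42), and none passed the test (edgeR adjusted p of 0.645 or more). The sign for Gip-high minus Pzp turned with total counts and spike-in sizes. Per kilobase of exon the mean level in Gcg-high cells was 1384 ± 493 CPM per kb for Cpe (SD, n = 3 pools). The corresponding level was 71.1 ± 24.95 for Pcsk1, 60.7 ± 21.4 for Pcsk1n, 46.4 ± 47.03 for Mboat4, 25.6 ± 6.67 for Pam, 0.826 ± 0.538 for Furin and 0.527 ± 0.913 for Pcsk2. Pcsk1 and Pcsk1n did not differ beyond their spread, nor did Furin and Pcsk2.

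Pam lies on chromosome 1 (97795114 to 98095646, minus strand). In SLX-11175, SLX-11179 and SLX-9703 its summed level was 288, 235 and 391 CPM in Gcg-high cells. It was 68.97, 202 and 223 CPM in Gip-high cells, 167, 181 and 282 CPM in Pzp cells and 132, 127 and 192 CPM in Cck-high cells. In each pool Gcg-high cells had the highest value. The log2 fold change of Gcg-high minus Pzp was 0.76 (-0.15 to 1.68, adjusted p = 0.999), and that of Gcg-high minus Gip-high was 0.42 (-0.51 to 1.35, adjusted p = 0.760). Neither passed the test of edgeR. Over the endocrine cells of the deep pool Pam and Pcsk1 had a Spearman correlation of 0.33 (73 cells), while each correlated at about the same strength with depth (0.41 and 0.40). The correlation of Pam and Pcsk1 was 0.26 in SLX-11175 and 0.06 in SLX-11179.

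Furin, a convertase of the trans-Golgi network that acts in most tissues, had its highest mean in Pzp cells. It lies on chromosome 7 (80388585 to 80405436, minus strand), overlapped by the antisense gene Gm44851. The summed level was 43.5, 35.8 and 30.3 CPM in Pzp cells of SLX-11175, SLX-11179 and SLX-9703. It was 4.46, 5.0 and 13.3 CPM in Gcg-high cells and 2.38, 1.79 and 7.14 CPM in Gip-high cells, so Pzp cells did not overlap with either. Cck-high cells (8.83, 20.7 and 35 CPM) were above Gcg-high and Gip-high cells in each pool and above Pzp cells in the deep pool only. After thinning, a Furin read was found in 28 of 64 Pzp cells (43.8%, exact 95% interval 31.4% to 56.7%), 6 of 53 Gcg-high cells (11.3%, 4.27% to 23.03%) and 0 of 25 Gip-high cells (upper limit 13.7%). Unthinned, the counts were 51 of 64, 25 of 53 and 9 of 25. The log2 fold change was -2.29 for Gcg-high minus Pzp (-4.30 to -0.29, edgeR adjusted p = 0.989) and -2.61 for Gip-high minus Pzp (-4.78 to -0.44, adjusted p = 0.228), and neither passed the test. Under limma on cell means the log2 difference of Gip-high from Pzp cells passed (-2.72, adjusted p = 0.00194). In the shallow pools these values rest on few reads: 5 and 8 in the Gcg-high sums and 1 in each Gip-high sum. The goblet markers named above were highest in the same class.

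Over the 3 main classes, 0 of 7 members were called by edgeR for Gcg-high minus Gip-high and 0 of 7 for Gcg-high minus Pzp, where 1.12% (0.725% higher) and 0.269% of all genes tested were called. All 7 passed the filter on low counts in these fits. At an unadjusted edgeR p under 0.05 there were 3 members in each, beside 1236 and 418 of the 9656 genes tested. DESeq2 called 1 member in each, Pcsk2 and Mboat4 respectively, and limma on cell means called 3 and 1. Pcsk2 and Mboat4 passed the filter mainly through the Gip-high and the Gcg-high sums, so their calls add little to their counts. The median log2 fold change of the members was 0.32 and 0.58, beside 0.24 and 0.01 over all genes tested.

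**Figure D3:**
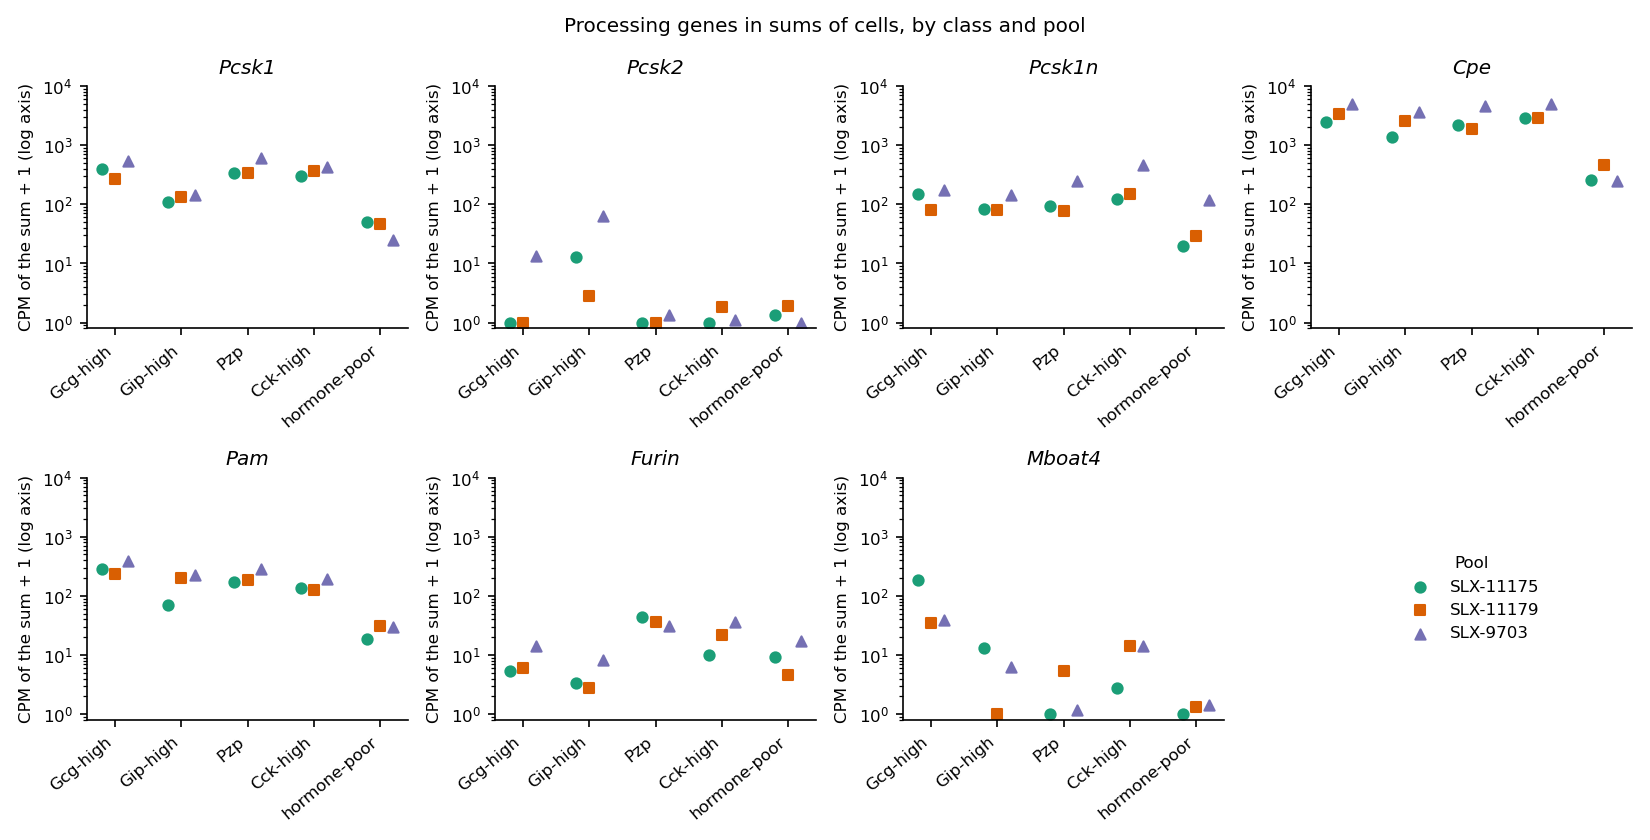
Summed level of each member (vertical log axis, CPM + 1) by class (horizontal axis), 1 symbol per pool. Pcsk1 is lowest among endocrine classes in Gip-high cells (109 to 140 CPM), Furin is highest in Pzp cells except in the deep pool, and Mboat4 is highest in Gcg-high cells.

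Endocrine cells were next compared with the hormone-poor cells, sorted and sequenced alongside them, to ask which members mark hormone-producing cells. Pcsk1 was 48.98, 45.8 and 23.7 CPM, Cpe 259.6, 454 and 246 CPM and Pam 17.7, 30.3 and 29.1 CPM in the hormone-poor sums of SLX-11175, SLX-11179 and SLX-9703. These values lie below every endocrine class. Wells that failed the filters carried 60.4, 4.12 and 4.55 CPM of Pcsk1, 758, 2.75 and 96.4 CPM of Cpe and 74.1, 4.12 and 11.9 CPM of Pam in their sums. These were above the hormone-poor sum of SLX-11175 for all 3 genes and below it in the other pools, and for Pam also above the Gip-high sum of SLX-11175. In the mean of the Gcg-high, Gip-high and Pzp classes minus hormone-poor cells, Pcsk1 was higher (log2 fold change 1.77, SE 0.48, edgeR adjusted p = 0.0393). Cpe (2.15, SE 0.48, adjusted p = 0.0110) and Pam (2.26, SE 0.42, adjusted p = 0.00341) were also higher. These were 3 of 7 members, where 5.41% of all genes tested were called, 1.88% higher and 3.53% lower. The median over all genes was -0.18.

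The other 4 members were not called. Pcsk1n had a log2 fold change of 0.79 (0.09 to 1.5, edgeR adjusted p = 0.203) and Mboat4 of 4.11 (1.36 to 6.86, adjusted p = 0.0801). For Furin the value was -0.50 (-1.90 to 0.89, adjusted p = 0.751) and turned positive with total counts, spike-in and precursor-free library sizes. For Pcsk2 it was 0.55 (-4.23 to 5.32, adjusted p = 0.936). Taken class by class against hormone-poor cells, Pcsk1, Cpe and Pam were called in Gcg-high cells (log2 fold changes 2.15, 2.34 and 2.63), where 2.61% of genes were called, with Mboat4 (7.20, adjusted p = 0.0140). The hormone-poor sums held 0, 1 and 8 reads of Mboat4, which passed the filter on low counts through the other classes, so this call adds little to the counts given for it below. The same 3 and Pcsk1n were called in Cck-high cells (2.22, 2.47, 1.76 and 1.69), where 3.34% of genes were called. In Gip-high cells Cpe and Pam were called (2.31 and 2.24, 5.17% of genes) and Pcsk1 was not (1.08, adjusted p = 0.279). In Pzp cells only Pam was called (1.90, adjusted p = 0.0358, 2.56% of genes), with Pcsk1 at 2.08 (adjusted p = 0.0520) and Cpe at 1.80 (adjusted p = 0.0836). Since all share the hormone-poor sums, these values are not independent.

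Single libraries mattered for these calls. Pam was called in 18 of 19 alternatives, Cpe in 16 and Pcsk1 in 11. Without SLX-9703 all 3 were lost (Pcsk1 1.10, adjusted p = 0.297; Cpe 1.53, adjusted p = 0.0859; Pam 1.78, adjusted p = 0.0842). Without SLX-11175 Pcsk1 was lost (2.68, adjusted p = 0.0549), and without SLX-11179 so were Pcsk1 (1.90, adjusted p = 0.170) and Cpe (2.43, adjusted p = 0.0531). With no pool block Pcsk1 missed the threshold as well (1.69, adjusted p = 0.0521). The direction stayed the same in each alternative for all 3 genes.

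**Figure D4:**
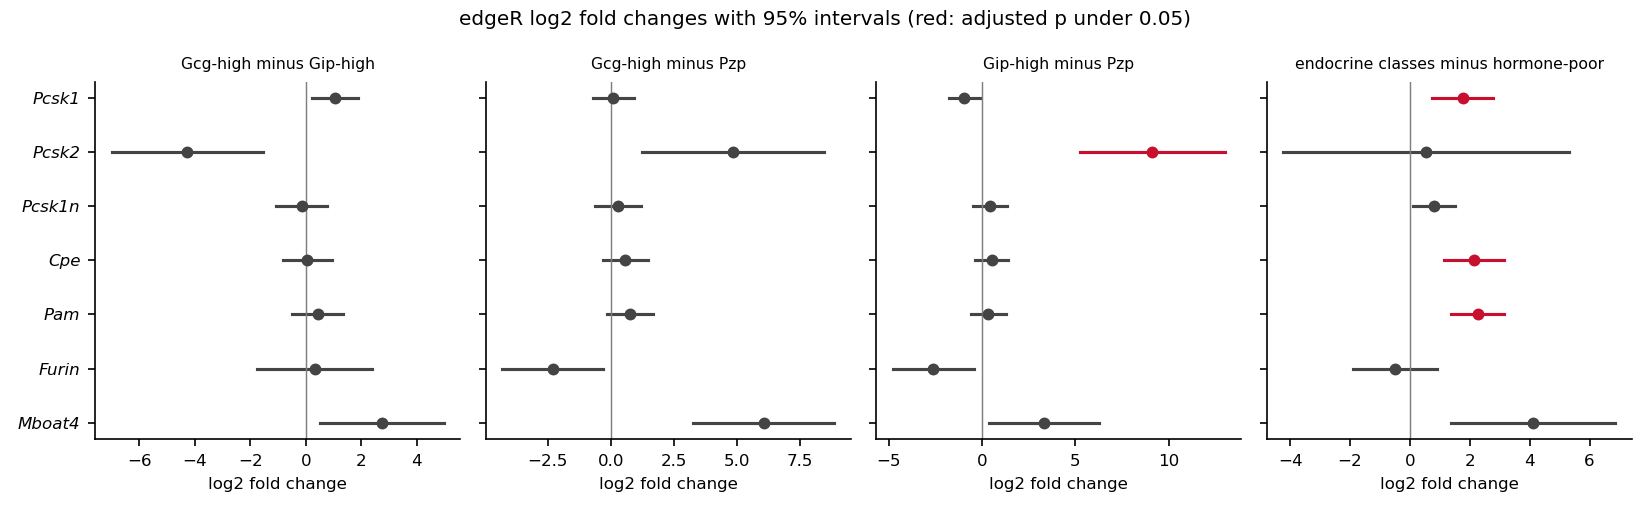
Log2 fold change of the members (points) with 95% intervals (lines) from edgeR in 4 comparisons, 1 panel each with its own horizontal axis and the members on the vertical axis. Calls at an adjusted p under 0.05 are in red: Pcsk2 in Gip-high minus Pzp cells, and Pcsk1, Cpe and Pam in endocrine classes minus hormone-poor cells.

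The Pcsk1, Pcsk1n and Cpe reads of hormone-poor cells were concentrated in a small group that carried another hormone. Of the 66 hormone-poor cells, 12 had 10000 CPM or more of Nts, the neurotensin precursor (2, 8 and 2 cells in SLX-11175, SLX-11179 and SLX-9703). Of the hormone-poor reads of SLX-11175, SLX-11179 and SLX-9703, these cells held 85.7%, 89.4% and 80.4% for Pcsk1, and 74.5%, 96.8% and 74.3% for Pcsk1n. For Cpe they held 92.9%, 96.6% and 53.9%. For Pam the shares were 25%, 72% and 24.7%, and for Furin, on 22 and 12 reads in the shallow pools, 59.1%, 75% and 31.2%. In the deep pool single cells without high Nts gave 50.5% of the Pam and 61.99% of the Furin reads. There 1 Nts cell alone gave 75.4% of the Pcsk1 and 64.3% of the Pcsk1n reads. In SLX-11175, 1 Nts cell gave 59.6% of the Cpe reads. In SLX-11179 no single cell gave more than 34.4% for these 3 genes. The median level of the 12 Nts cells was 149 CPM of Pcsk1, 156 CPM of Pcsk1n, 1807 CPM of Cpe and 50.6 CPM of Pam. In the other 54 cells the medians of Pcsk1, Pcsk1n and Cpe were 0, and that of Pam was 17.4 CPM. The Nts cells also had Sct, the secretin precursor (median 13690 CPM), Chga (1044 CPM), Scg5 (167 CPM) and Tph1, the enzyme of serotonin synthesis (162 CPM). Pcsk2 was found in 1 of them and Mboat4 in 1. Of the 20 hormone-poor cells with at least 10 CPM of Pcsk1, 11 belonged to this group.

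With the Nts cells taken out of the hormone-poor class, an alternative chosen after the data were seen, the log2 fold changes of the endocrine classes rose to 4.30 for Pcsk1 (edgeR adjusted p = 6.94e-05), 5.24 for Cpe and 2.71 for Pam (adjusted p = 0.00103). Pcsk1n was then called as well (2.96, adjusted p = 0.00115). The cells taken out held most of the hormone-poor reads of Pcsk1, Pcsk1n and Cpe. The rise for these 3 genes therefore restates that observation and is no separate support. Furin turned to 0.25 and remained uncalled (adjusted p = 0.881). 

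Mboat4 lies on chromosome 8 (34115030 to 34125182, plus strand) and overlaps the antisense gene Gm39158. It was read in few cells, and its summed level was highest in Gcg-high cells. The summed level in SLX-11175, SLX-11179 and SLX-9703 was 185, 33.2 and 37.4 CPM in Gcg-high cells. It was 11.9, 0 and 5.24 CPM in Gip-high cells, 0, 4.32 and 0.170 CPM in Pzp cells and 1.77, 13.2 and 13.1 CPM in Cck-high cells. In hormone-poor cells it was at most 0.453 CPM. Gcg-high cells were above every other class in every pool, although 1 cell with 172 reads (952 CPM) supplied 83.1% of the Gcg-high reads of SLX-11175, where the level without it was 37.3 CPM. In all 53 Gcg-high cells, 17 had a Mboat4 read (32.1%, exact 95% interval 19.9% to 46.3%), against 4 of 64 Pzp cells (6.25%, 1.73% to 15.2%) and 10 of 37 Cck-high cells (27.03%, 13.8% to 44.1%). In Gip-high cells it was 5 of 25 (20%, 6.83% to 40.7%). After thinning the counts were 13, 1, 7 and 3 in the same order.

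Its substrate was distributed otherwise. Ghrl, the ghrelin precursor, was at 17368, 8869 and 14722 CPM in Gcg-high cells and at 12566, 11137 and 13168 CPM in Pzp cells, which overlapped. In Gip-high cells it was at 26.2, 55.5 and 87.7 CPM. Among cells with at least 1000 CPM of Ghrl, a Mboat4 read was found in 13 of 34 Gcg-high cells (38.2%, exact 95% interval 22.2% to 56.4%) and in 3 of 44 Pzp cells (6.82%, 1.43% to 18.7%). After thinning the counts were 9 of 34 and 1 of 44. In the deep pool, 8 of 14 Ghrl-high and 0 of 5 Ghrl-low Gcg-high cells had a Mboat4 read. In SLX-11179 the order was the other way, with 3 of 12 and 2 of 6.

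The log2 fold change of Mboat4 for Gcg-high minus Pzp was 6.06 (3.26 to 8.86), with an edgeR adjusted p of 0.0765, which missed the threshold. Of 19 alternatives, 6 passed, with values from 1.77 to 8.83 and adjusted p from 1.91e-05 to 1 over all 19. Without SLX-11179 it was 8.53 (adjusted p = 0.0105), without SLX-11175 it was 4.85 (adjusted p = 1.00) and without SLX-9703 it was 4.82 (adjusted p = 0.230). Restricted to cells with at least 1000 CPM of Ghrl it was 6.59 (adjusted p = 0.0754), an alternative chosen after the data were seen. For Gcg-high minus Gip-high the value was 2.74 (0.52 to 4.97, adjusted p = 0.269). The Gcg-high sums held 207, 53 and 1853 reads of Mboat4, the Pzp sums 0, 7 and 10 and the Gip-high sums 5, 0 and 72. Mboat4 thus passed the filter on low counts mainly through the Gcg-high sums. These tests and the alternatives that passed therefore add little to the counts.

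Split by Ghrl at 1000 CPM over all endocrine cells, the Mboat4 level was 118, 18.1 and 21.0 CPM in Ghrl-high cells and 12.2, 9.94 and 5.41 CPM in Ghrl-low cells of SLX-11175, SLX-11179 and SLX-9703. Ghrl-high cells were above Ghrl-low cells in every pool. In SLX-11175, 172 of the 194 Ghrl-high reads came from 1 cell, and without it the level was 15.1 CPM. Without that pool the log2 fold change of the split was 1.32 (edgeR adjusted p = 1.00). Within classes the order was not uniform. Gcg-high cells of SLX-11179 had 29.7 CPM when Ghrl-high and 42 CPM when Ghrl-low, and Cck-high cells of the deep pool had 8.15 and 18.9 CPM. All 25 Gip-high cells were Ghrl-low, so the split also compares classes. The share of cells with a read hardly differed, at 21 of 98 (21.4%, exact 95% interval 13.8% to 30.9%) and 15 of 86 (17.4%, 10.1% to 27.1%). The log2 fold change was 1.81 (SE 0.49, edgeR unadjusted p = 0.00567, adjusted p = 0.838). In this comparison 1 of 10175 genes was called, 0.00983% of those tested. Across 21 alternatives the value ranged from 0.27 to 2.51, and 2 passed. Whether the difference in Mboat4 by Ghrl was unlike in Gcg-high and Pzp cells could not be decided (log2 difference 3.29, SE 2.48, edgeR adjusted p = 1.00). The Pzp sums held only 0, 7 and 6 Mboat4 reads when Ghrl-high and 0, 0 and 4 when Ghrl-low. In that comparison 0 of 8827 genes were called. For the other members tested in the Ghrl split the log2 fold changes lay between -0.40 for Pam and 0.67 for Furin, with adjusted p of 0.924 or more. Pcsk2 had too few reads to be tested there.

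**Figure D5:**
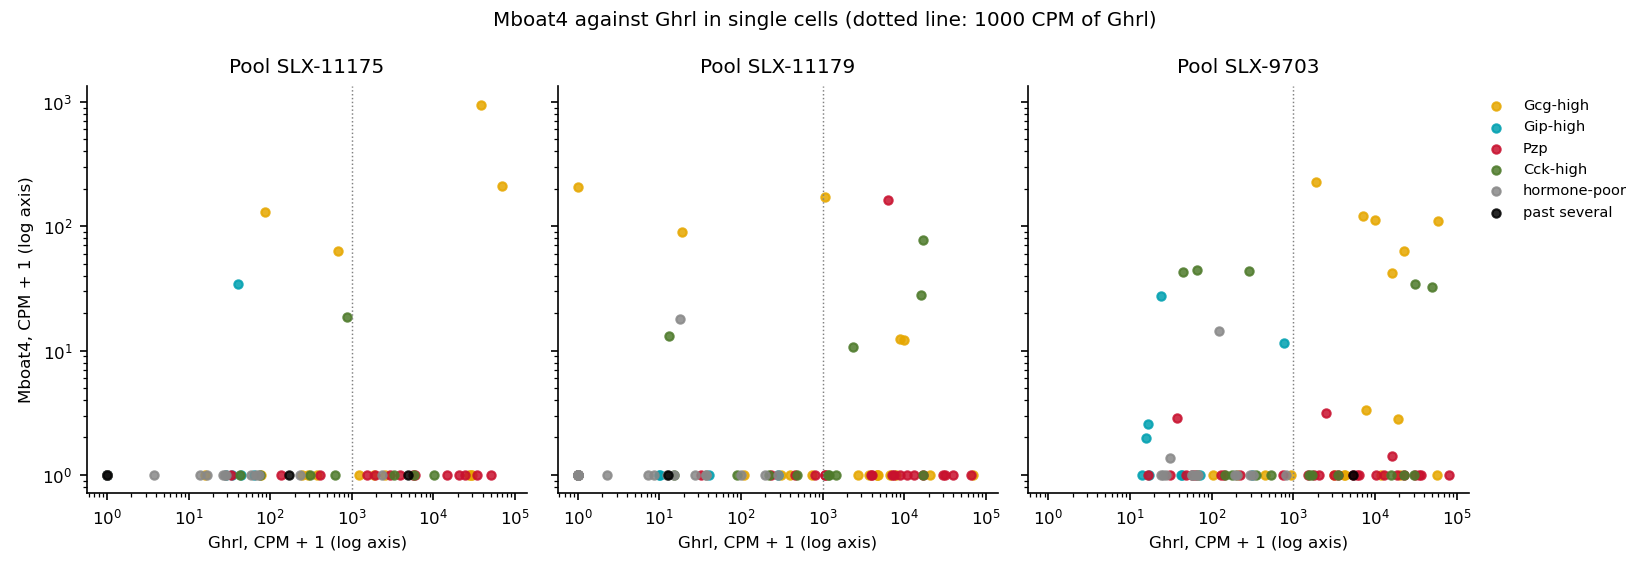
Ghrl (horizontal log axis, CPM + 1) against Mboat4 (vertical log axis, CPM + 1) per cell, 1 panel per pool, coloured by class, with a dotted line at 1000 CPM of Ghrl. In the deep pool the Gcg-high cells with Mboat4 reads all lie to the right of the line, and most Pzp cells there lie on the bottom edge.

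Other steps of the pathway were read from a list of 30 genes, of which 26 passed the filter on low counts. It held other convertases, the PC2 chaperone, exopeptidases, glutaminyl cyclases, sulfotransferases, copper and ascorbate supply, cathepsins, furin trafficking and signal peptidase. In endocrine classes minus hormone-poor cells 5 of 26 rose and 1 fell, where 1.88% and 3.53% of all genes tested did, and the median log2 fold change was 0.77, beside -0.18 over all genes. The 5 included Scg5, which encodes 7B2, the chaperone of the Pcsk2 convertase (1.94, SE 0.41, edgeR adjusted p = 0.00803), and Tpst1, a tyrosylprotein sulfotransferase (2.51, SE 0.45, adjusted p = 0.00245). They also included the cathepsin gene Ctsl (2.64, adjusted p = 0.0454) and the carboxypeptidase gene Cpn1 (1.72, SE 0.48, adjusted p = 0.0426). The fifth, Cpm, passed the filter on low counts through the endocrine classes alone, so its call is no support for the count of the list. It had no read in any hormone-poor sum and reached 22.2 to 96.2 CPM in Pzp cells, 1.88 to 58.9 CPM in Gcg-high cells and at most 4.59 CPM in Gip-high cells. Sec11c, a signal peptidase subunit, fell by 2.84 on the log2 scale (adjusted p = 2.62e-05).

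The chaperone gene Scg5 did not have its highest level where Pcsk2 did. Its summed level was 237.5, 146 and 288 CPM in Gcg-high cells, 136, 124 and 247 CPM in Gip-high cells and 281, 296 and 368 CPM in Pzp cells of SLX-11175, SLX-11179 and SLX-9703. In each pool the Gcg-high and Pzp sums were above the Gip-high sum. For Gip-high minus Pzp the log2 fold change of Scg5 was -0.20 (edgeR adjusted p = 0.894). For Gcg-high minus Gip-high the fitted value was -0.14, opposite in sign to the sums, and was not called.

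Between the 3 main classes, Cpn1 and Qpct were lower in Gip-high cells, Cpn1 against both other classes and Qpct against Pzp cells. Cpn1 was at 132, 61.3 and 167 CPM in Gcg-high cells and at 89.4, 153 and 163.5 CPM in Pzp cells, against 14.3, 3.58 and 9.83 CPM in Gip-high cells. Its log2 fold change was 3.13 for Gcg-high minus Gip-high (SE 0.58, edgeR adjusted p = 0.0145) and -3.22 for Gip-high minus Pzp (SE 0.59, adjusted p = 0.00702). Qpct, which forms N-terminal pyroglutamate, was at 163.5, 43.2 and 189.5 CPM in Pzp cells and at 0, 5.37 and 0.510 CPM in Gip-high cells (-6.46, SE 1.34, adjusted p = 0.0156). Qpct passed the filter on low counts through the other classes. Its call therefore adds little to these levels and to the count of lower genes below. Of 26 listed genes tested, 1 was higher in Gcg-high than in Gip-high cells, 0 differed between Gcg-high and Pzp cells by edgeR, and 2 were lower in Gip-high than in Pzp cells. Of all genes tested, 0.725%, 0.269% (in either direction) and 1.76% were called in the same way. At an unadjusted edgeR p under 0.05, 2 of the 26 differed between Gcg-high and Pzp cells, beside 418 of all 9656 genes. The median log2 fold change of the list was 0.60, -0.07 and -0.90 in these comparisons, beside 0.24, 0.01 and -0.24 over all genes.

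Precursor and granin genes that set no class were read in the same fits. Chgb, a granin of the granule matrix, was higher in Gcg-high than in Gip-high cells (log2 fold change 2.60, edgeR adjusted p = 0.0196) and than in Pzp cells (3.33, adjusted p = 0.0100). Chga (2.85, adjusted p = 0.0235), Pyy, the precursor of peptide YY (6.86, adjusted p = 0.0183), and Ucn3, urocortin 3 (7.64, adjusted p = 0.00985), were higher in Gcg-high than in Gip-high cells. Ucn3 was also higher in Pzp than in Gip-high cells (-6.96 for Gip-high minus Pzp, adjusted p = 0.00866). The Gip-high sums held at most 0.146 CPM of Ucn3, which passed the filter on low counts through the other classes. Both Ucn3 calls therefore add little to its levels, 24.4 to 45.5 CPM in Gcg-high and 8.64 to 40.5 CPM in Pzp cells. Ghrl was lower in Gip-high cells than in Gcg-high cells (7.35 for Gcg-high minus Gip-high, adjusted p = 1.77e-05) and Pzp cells (-7.02 for Gip-high minus Pzp, adjusted p = 1.6e-05). Scg2 was lower in Gip-high cells than in Gcg-high cells (2.40 for Gcg-high minus Gip-high, adjusted p = 0.0256) and Pzp cells (-2.63 for Gip-high minus Pzp, adjusted p = 0.00786). Nts was higher in Pzp cells than in Gcg-high cells (-5.47 for Gcg-high minus Pzp, adjusted p = 0.00158) and Gip-high cells (-5.48 for Gip-high minus Pzp, adjusted p = 0.000489). Its Pzp sums ranged from 2168 to 44380 CPM between pools, against 33.9 to 476 CPM in Gcg-high and 16.9 to 388 CPM in Gip-high cells. After thinning, an Nts read was found in 38 of 64 Pzp, 23 of 53 Gcg-high and 13 of 25 Gip-high cells, so many Pzp cells had none.

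The genes most like Pcsk1, Cpe, Pam and Pcsk1n across the 73 endocrine cells of the deep pool were ranked by Spearman correlation of log2(CPM + 1) among 8291 genes read in at least 50% of those cells. For Pcsk1 the closest were Lgals3bp (0.59) and Tm4sf4 (0.57), and these were also correlated with it in SLX-11175 (0.56 and 0.58) and SLX-11179 (0.47 and 0.50). The next, Tmx1, Gm14830 and Polr2m (0.56, 0.54 and 0.54), reached at most 0.19 in the other pools. For Cpe they were Cd164, Cck, Atp6ap1, Atp6ap2 and Adh1 (0.53 to 0.51), of which Cck (0.30 and 0.39) was the highest in SLX-11179 and Atp6ap2 (0.33) in SLX-11175. For Pam they were Gm9493, Itm2c, Hnrnpab, H3f3a and Eif4a-ps4 (0.59 to 0.54), and for Pcsk1n Ubl3, Pja2, Tgoln1, Slc15a1 and Etnk1 (0.51 to 0.48). Only Itm2c (0.32 in SLX-11179), Eif4a-ps4 (0.31 in SLX-11175) and Slc15a1 (0.35 in SLX-11179) of these exceeded 0.30 in another pool. Pcsk2 was not detected in enough cells to be ranked, and Furin and Mboat4 were not ranked. The cells share libraries and depth, so these are descriptions.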

How the data were processed

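Messenger RNA of 288 single cells was measured by Smart-seq2, a full-length protocol without strand or molecule tags. The authors deposited raw read counts per gene from HTSeq. The submitters' processing notes name GSNAP 2015-09-29, HTSeq 0.5.3p3 and the genome mm10. Of all counts, 77.6% stood in 5 lines that name no gene and 5.34% in 92 spike-ins, and both were left out of library sizes. Another 4 columns match no listed cell and were not used. Symbols were found for 45143 gene identifiers. Reads per passing cell ranged from 20121 to 779919 in the shallow pools and from 319966 to 4368674 in the deep pool.

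Cells were filtered and classed by the thresholds given above, with no doublet caller. Counts were summed per class and pool (at least 3 cells) and fitted with edgeR 4.0.16 in R 4.3.3 (trimmed mean of M-values scaling, its default filter on low counts, quasi-likelihood test, pool as a term), and a call is an adjusted p under 0.05. The 3 main classes share a fit, and the hormone-poor and Cck-high sums enter a fit with them. limma 3.58.1 and DESeq2 1.42.0 were alternatives, and the pipeline was tested on simulated counts. Shares of cells with a read were repeated after thinning to 20000 reads. The pool pairs the sums of an animal. Deviations from the class means correlated at 0.03 to 0.42 within pools (9 pairs) and at -0.21 to 0.09 across pools (18 pairs). Named pathway genes are those called, up to 10 per comparison by p, and Ctsl was added after its value was seen. The members, gene lists and tests were chosen with earlier results of these data known. Promoters are from RefSeq (GRCm38.p6) and positions from GENCODE M21.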

Additional observations from a re-analysis of the deposited data

How the results depend on the processing

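The count of members called moved with several settings, for which the shares of all genes called are not given here. For Gcg-high minus Gip-high it was 0 and became 1 with DESeq2 and 3 with limma on cell means. For Gcg-high minus Pzp it was 0 and became 1 (Mboat4) at 50000 reads per cell, with higher class thresholds, with no filter on low counts, with DESeq2 and with limma, and ranged from 0 to 1 when a pool was left out (1 without SLX-11179). In the main setting the Pzp sums held 0, 7 and 10 reads of Mboat4, so these Mboat4 calls add little to its counts. For Gip-high minus Pzp the count of members called was 1 and became 2 with higher thresholds and with total counts, 3 with limma, 0 with thinned cells and with spike-in sizes, and 0 to 2 when a pool was left out (2 without SLX-11179, 0 without SLX-9703). For endocrine minus hormone-poor cells it was 3 and became 1 at a 10% mitochondrial limit, 5 with spike-in sizes and with precursors left out of library sizes, and 0 to 2 when a pool was left out (1 without SLX-11179, 0 without SLX-9703). Mboat4 for Ghrl-high minus Ghrl-low passed at 1.88 with no filter (adjusted p = 0.0336) and at 1.79 with DESeq2 (adjusted p = 0.0457).

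Log2 fold changes near 0 changed sign. For Gcg-high minus Gip-high, Pcsk1n became 0.32 when thinned, 0.39 with total counts, 0.48 with spike-in sizes, 0.22 without precursors and 1.59 with limma. Cpe there became -0.11 at 50000 reads, -0.027 with higher thresholds, -0.017 with cells past several thresholds assigned, -0.053 with DESeq2, -0.0057 with no replicate block, -0.045 at 750000 reads in the deep pool and -0.15 without Gip-high cells under 100000 CPM. For Gcg-high minus Pzp, Pcsk1 became -0.10 when thinned, -0.10 with total counts, -0.026 with spike-in sizes, -0.32 with limma and -0.013 in Ghrl-high cells only. For Gip-high minus Pzp with total counts, spike-in sizes and limma, Pcsk1n became -0.34, -0.39 and -0.53, Cpe -0.21, -0.34 and -0.94, and Pam -0.40, -0.49 and -0.80, and Pam also -0.016 without precursors. For endocrine minus hormone-poor cells, Pcsk2 became -0.28 at 50000 reads and Pcsk1n -0.15 when thinned. Furin there became 0.24 with total counts, 0.59 with spike-in sizes, 0.74 without precursors, 0.77 with limma and 0.25 without Nts cells, and ranged from -0.95 to 0.33 when a pool was left out (0.33 without SLX-11175). None of the values that changed sign passed the test, and the cause was not tested. The settings at 750000 reads, without low Gip or Nts cells and in Ghrl-high cells only were chosen after the data were seen.

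The share of Gip-high cells with Pcsk2 ranged from 12.5% to 36%. Of the other single-gene values, 433 kept direction and side of the threshold, 26 passed newly and 14 were lost. The pool block changed 1 member's call, that of Pcsk1 against hormone-poor cells. Depth limits Pcsk2, Furin and Mboat4 in the shallow pools, where a class sum held as few as 0 or 1 of their reads.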
